A study of Mus musculus with 2 samples.

Results

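Binding of Rfx6 was examined at 6 genes of prohormone processing, namely Pcsk1, Pcsk2, Furin, Scg5, Cpe and Pam. They were chosen by function, as the enzymes that cut, trim and amidate prohormones and a chaperone of one of them, and are 6 of the 22367 protein-coding genes of the GENCODE M1 annotation of the mouse mm9 genome (mitochondrial genes left out). The 3HA-Rfx6 peak list held 23308 peaks, of which 25 had their summit, the position of highest signal, in one of these genes or within 50 kb of it. The peaks came from chromatin immunoprecipitation followed by sequencing (ChIP-seq) of Min6b1, a mouse pancreatic β cell line, grown in 25 mM glucose, transfected with a pCMV-Tag2A plasmid that carried 3HA-tagged Rfx6, and taken for precipitation with the anti-HA antibody 12CA5 after 2 days. The control was a library from cells labelled only as Min6b1, precipitated with the same antibody, although the labels give both libraries the same text on transfection. There was 1 library of each, so none of the values below has a replicate error, and the protein measured was expressed from the plasmid in addition to the Rfx6 of the cells. The 3HA-Rfx6 library retained 33949757 of 49443917 reads (68.7%) and the control 3567375 of 16911298 (21.1%) once MACS, the peak caller, had limited each position to 1 read. The control entered only through this peak calling. No expression values were used, so the cell type could not be checked against its markers.

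Prohormones such as proinsulin and proglucagon are cut in the secretory granules after basic residues by the convertases PC1/3 and PC2, which Pcsk1 and Pcsk2 encode. The exposed basic residues are then removed by carboxypeptidase E, the product of Cpe, and many peptides receive a C-terminal amide from the enzyme encoded by Pam. Scg5 encodes a chaperone and inhibitor of PC2, and Furin encodes a convertase of the Golgi apparatus that acts in most cell types on growth factors, receptors and other precursors. In β cells, PC1/3, PC2 and carboxypeptidase E together turn proinsulin into insulin. Rfx proteins recognise the X-box, an imperfect inverted repeat of short arms with a few bases between them.

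The sequences under the summits that the results turn on are given first, on the strand of the gene and in mm9 coordinates. They are the only peak of Pcsk1, the highest peaks of Pcsk2 and Scg5, the upstream peak of Furin, whose summit lies in an X-box match, and the peaks at the starts of Cpe and Pam. Capitals mark the closest match, on either strand, to the strict X-box in the 200 bp around the summit. This pattern, searched on both strands, is GT, any base, a purine and CC, then 0 to 3 bases of any kind, then a purine, G, a pyrimidine and AAC, which fixes 11 positions.
Pcsk1, only peak, chr13:75200459-75200609, plus strand: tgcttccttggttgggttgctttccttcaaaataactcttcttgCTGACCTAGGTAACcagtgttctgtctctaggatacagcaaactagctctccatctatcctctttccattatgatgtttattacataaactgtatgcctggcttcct
Pcsk2, intron 10, chr2:143622459-143622609, plus strand: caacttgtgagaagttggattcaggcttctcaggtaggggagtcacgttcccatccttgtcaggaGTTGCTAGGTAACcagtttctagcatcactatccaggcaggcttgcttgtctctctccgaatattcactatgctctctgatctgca
Furin, upstream, chr7:87558073-87558223, minus strand: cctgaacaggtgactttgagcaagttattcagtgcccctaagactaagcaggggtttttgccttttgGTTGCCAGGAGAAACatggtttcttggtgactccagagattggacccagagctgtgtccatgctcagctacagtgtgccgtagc
Scg5, downstream, chr2:113597792-113597942, minus strand: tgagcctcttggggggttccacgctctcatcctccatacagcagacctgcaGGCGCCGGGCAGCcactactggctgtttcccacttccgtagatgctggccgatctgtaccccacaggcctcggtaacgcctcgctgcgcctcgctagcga
Cpe, gene start, chr8:67171646-67171796, minus strand: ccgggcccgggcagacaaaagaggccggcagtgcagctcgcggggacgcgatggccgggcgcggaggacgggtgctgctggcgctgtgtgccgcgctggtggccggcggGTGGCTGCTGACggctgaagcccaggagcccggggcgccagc
Pam, gene start, chr1:99991777-99991927, minus strand: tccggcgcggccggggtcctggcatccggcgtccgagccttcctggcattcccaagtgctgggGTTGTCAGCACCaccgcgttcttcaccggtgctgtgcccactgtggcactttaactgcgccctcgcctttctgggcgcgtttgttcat

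The capitals of the Pcsk2 stretch matched at each of the 11 positions and covered the summit. Those of the Pcsk1 and Furin stretches had 1 mismatch, and those of the Scg5, Cpe and Pam stretches had 2. Sites from 3 further peaks are shown because they matched fully or belonged to the highest peak near a gene, with 20 bases on each side and on the strand of the match. Those of Pcsk2 and Cpe were full matches, and that of Furin had 2 mismatches.
Pcsk2, downstream in Bfsp1, chr2:143663368-143663380 for the capitals, minus strand: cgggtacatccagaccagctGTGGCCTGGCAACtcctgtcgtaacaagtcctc
Cpe, upstream at Sc4mol, chr8:67212667-67212680 for the capitals, plus strand: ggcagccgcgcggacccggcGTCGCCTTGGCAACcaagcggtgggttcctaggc
Furin, downstream at Unc45a, chr7:87486760-87486773 for the capitals, plus strand: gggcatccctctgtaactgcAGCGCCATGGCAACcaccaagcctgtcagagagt

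All 6 genes had a summit in the gene or within 50 kb, where 67.8% of all protein-coding genes had one, which is the background for this count. Summits inside the gene itself were present for 4 of the 6 (Pcsk2, Furin, Cpe and Pam) and for 31.3% of all protein-coding genes. Of the 200 other protein-coding genes nearest in length, no summit inside the gene was found for 27.5% in the case of Pcsk2, 72% for Furin, 45% for Cpe, 25% for Pam, 57% for Scg5 and 60% for Pcsk1. A summit inside the gene was thus common among genes as long as Pcsk2 and Pam and less so among genes as short as Furin. A summit within 1 kb of the annotated start of the gene was present for 2 of the 6 (Cpe and Pam), against 20.1% of all protein-coding genes. A longer gene offers more room for peaks, and the 6 genes are 16.9 to 301 kb long, so the total for each was also set beside those 200 genes. The number of summits in the gene or within 50 kb was above the median of these genes for Pcsk2, Furin, Cpe and Pam, equal to it for Scg5 and below it for Pcsk1. With only the 50% of peaks with the highest scores, 2 of the 6 genes were above that median and not 4, and 10 of the 25 peaks were left. Of the 25 peaks, 14 lay inside a gene of the set, 4 upstream and 7 downstream.

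**Figure D1:**
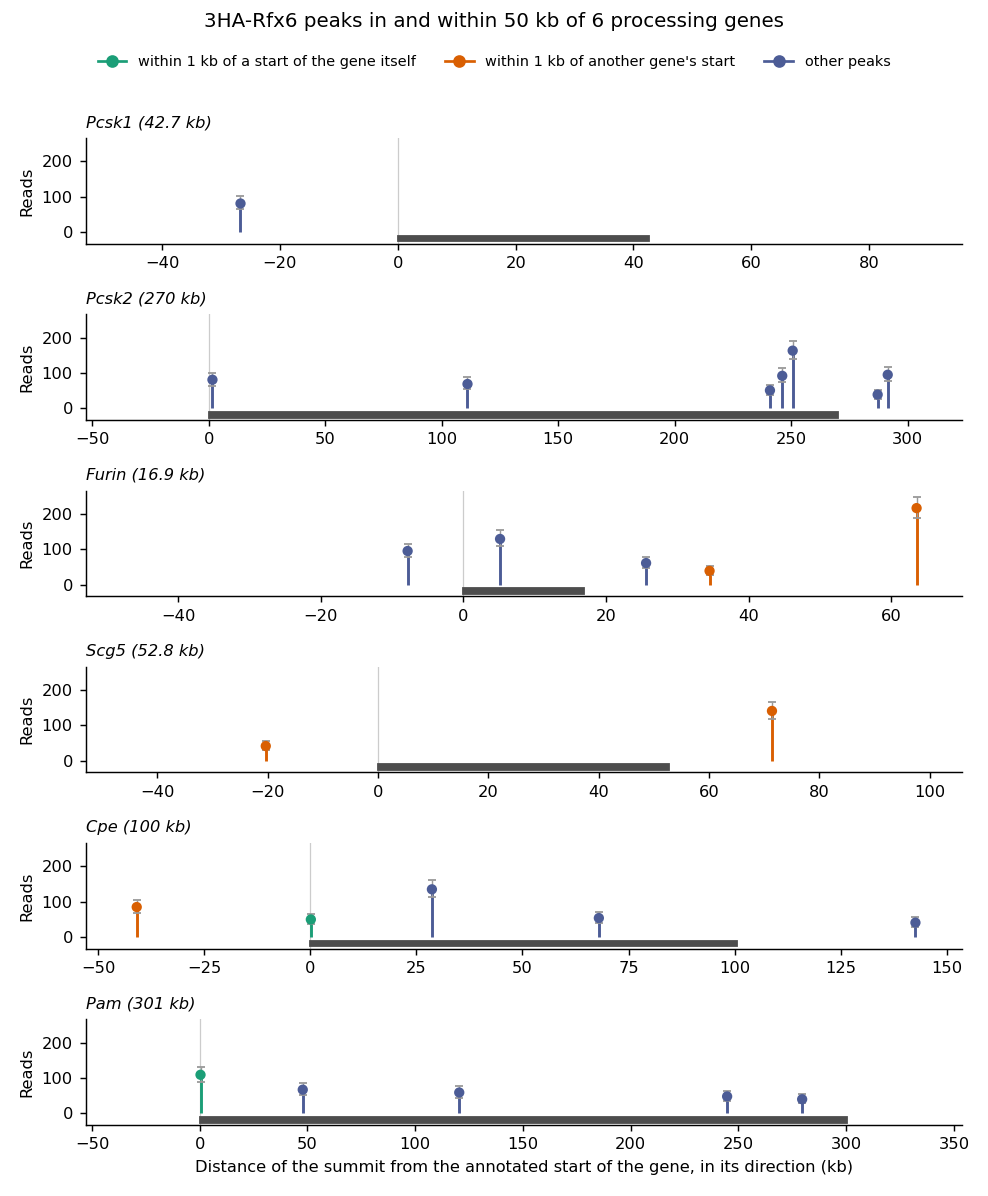
Reads of each 3HA-Rfx6 peak (vertical axis) against the distance of its summit from the annotated start of the gene in kb (horizontal axis, in the direction of the gene, with its own scale in each panel), with the gene as a dark bar and 95% Poisson intervals, which cover counting error only, as error bars. Both peaks of Scg5 and the highest peak of Furin lie within 1 kb of the start of another gene (orange), whereas Cpe and Pam have a peak at their own start (green).

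Pcsk2 had the most summits of the 6 genes, with 7. Pcsk2 (ENSMUSG00000027419.9) spans 270 kb of chromosome 2 (143371892 to 143642021, plus strand). The 200 genes nearest in length had a median of 3 summits, and 16% of them had at least 7. Inside the gene lay 5 summits, against a median of 2 for these genes, of which 19% had at least 5. All 5 were intronic in the coding transcript Pcsk2-002, which has 12 exons.

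The highest peak of Pcsk2 lay in intron 10, 251 kb after the start, and covered 143621412 to 143623046, its highest point being 143622534. There were 163 reads in it (95% Poisson interval 139 to 190) with a fold enrichment of 21.19 over the background that MACS expected from the control and the surroundings. By reads it ranked among the top 13% of all peaks, and by fold enrichment among the top 9.04%. The X-box printed above covered this summit. Intron 8 held peaks of 51 and 92 reads, with fold enrichments of 7.08 and 14.37 and summits at 143612775 and 143618051, both also inside the noncoding gene Gm12360 on the opposite strand. These 3 summits lay within 9.76 kb of each other in the 3′ part of the gene. Of all peaks, 18.4% had at least 2 other summits within 10 kb, so such spacing was common.

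At the 5′ end, a peak of 81 reads had its summit in intron 1 of Pcsk2, 1.51 kb after the start, with a fold enrichment of 6.83. This position is also inside the noncoding gene C630020P19Rik on the opposite strand. The remaining intronic peak lay in intron 2, 111 kb after the start, and held 69 reads with a fold enrichment of 13.18. Its closest X-box match was 8 bp from the summit and had 2 mismatches. Beyond the end of Pcsk2, both summits fell inside Bfsp1, which encodes a structural protein of the eye lens, 17.0 and 21.3 kb past the end of Pcsk2. They held 39 and 95 reads, and the second, with a fold enrichment of 19.3, had the full X-box match printed above at 24 bp from its summit. The start of Bfsp1 was nearer than that of Pcsk2 to these summits and also to the 3 summits in introns 8 and 10, which were 66.1 to 75.9 kb from it.

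Pcsk1 had the fewest summits, with 1 and none in the gene. Pcsk1 (ENSMUSG00000021587.4) spans 42.7 kb of chromosome 13 (75227274 to 75269946, plus strand). Its peak covered 75199962 to 75201174, and its summit at 75200534 lay outside any annotated gene, 26.7 kb before the start of Pcsk1. It held 83 reads (66.1 to 103) with a fold enrichment of 9.43, and 41.9% of all peaks held at least as many reads. The closest X-box match, 18 bp from the summit, had 1 mismatch. Among the 200 genes nearest in length the median was 2 summits and 74% had at least 1. The window of Pcsk1 held 0 other protein-coding genes, against a median of 2 for genes of this length. Its next summit lay outside the window, 104 kb downstream of Pcsk1, where 164 reads gave a fold enrichment of 29.66. The list ends at a p-value of 1e-05, so weaker binding at Pcsk1 was not detectable at this depth.

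Furin (ENSMUSG00000030530.9) on chromosome 7 (87533471 to 87550322, minus strand) is the shortest of the 6 genes at 16.9 kb. It had 5 summits within 50 kb, against a median of 2 for genes of similar length, of which 19% had at least 5. The window of Furin held 5 other protein-coding genes, against a median of 3, and their part in the count was not tested. In the gene, the single peak covered 87544764 to 87546967, and its summit at 87545185 was in intron 1 of Furin-201, 5.14 kb after the annotated start of the gene and 1.41 kb after the start of the shorter transcript Furin-002. It held 129 reads (108 to 153) with a fold enrichment of 6.53. By reads it was among the highest 20.4% of peaks, whereas 73% of peaks had at least its fold enrichment. The peak was 2204 bp wide, and 4.62% of peaks were at least as wide.

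Upstream of Furin, 7.83 kb before the start, a peak of 95 reads (76.9 to 116) had its summit at 87558148 and a fold enrichment of 17.65. Fewer reads than in intron 1 thus went with a higher fold enrichment. The closest X-box match, with 1 mismatch, covered the summit, as printed above. The other 3 summits lay downstream, nearer to the starts of other genes. A peak of 61 reads was in Fes, which encodes a tyrosine kinase. A peak of 39 reads was 0.268 kb after the start of Man2a2, which encodes a mannosidase of the Golgi apparatus. The highest of all 25 peaks, with 216 reads (188 to 247) and a fold enrichment of 23.07, had its summit at 87486769, 46.7 kb beyond the end of Furin and 0.878 kb before the start of Unc45a, which encodes a myosin chaperone. Of all peaks, 6.58% held at least as many reads. Of the 25 summits this was the closest to the 50 kb limit from inside, and the closest one beyond the limit at any of the 6 genes lay 68.1 kb downstream of Furin with 92 reads and a fold enrichment of 7.3.

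Scg5 had 2 summits within 50 kb and none in the gene, and both lay at the starts of neighbouring genes. Scg5 (ENSMUSG00000023236.7) spans 52.8 kb of chromosome 2 (113616519 to 113669278, minus strand). The peak downstream of it, from 113597161 to 113599288 with its summit at 113597867, held 141 reads (119 to 166) with a fold enrichment of 13.42. Its summit was 18.7 kb beyond the end of Scg5, inside Grem1 and 0.936 kb after a start of that gene, which encodes an antagonist of bone morphogenetic proteins. The peak upstream, with its summit at 113689608, held 42 reads (30.3 to 56.8) with a fold enrichment of 5.16. It was 20.3 kb before the start of Scg5 and 0.79 kb before that of Arhgap11a, which encodes a GTPase-activating protein. Of the 25 peaks it was the only one whose closest X-box match had 3 mismatches. The median of the 200 genes nearest in length was also 2 summits.

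Cpe (ENSMUSG00000037852.7) on chromosome 8 (67071355 to 67171837, minus strand) had 5 summits within 50 kb, 3 of them in the gene. Its length is 100 kb. Of the 200 genes nearest in length, whose medians were 2 and 1, 23% had at least 5 within 50 kb and 17% had at least 3 in the gene. The peak at the start had its summit at 67171721, 0.116 kb after the start and inside the coding part of exon 1, and it was the only one of the 25 in an exon of the set. It held 50 reads (37.1 to 65.9) with a fold enrichment of 4.27, and 97.5% of all peaks had this fold enrichment or a higher one. The 200 bp around this summit had 76.5% G and C and 25 CpG, and 0.712% of all peaks were as rich in G and C.

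Intron 1 of Cpe held the other summits inside the gene. The first, 28.7 kb after the start with its summit at 67143186, held 135 reads (113 to 160) with a fold enrichment of 5.09. This peak was 2742 bp wide, and 1.45% of all peaks were at least as wide. Although 18.7% of peaks held at least as many reads, 91% had at least its fold enrichment. The second, 68.0 kb after the start, held 54 reads with a fold enrichment of 7.95. Upstream, 40.9 kb before the start of Cpe, a peak of 85 reads (67.9 to 105) had the highest fold enrichment at Cpe, 10.48. Its summit at 67212766 was 0.177 kb before the start of Sc4mol, which encodes an oxidase of cholesterol synthesis, and the full X-box match printed above was 86 bp from it. Downstream, 42.1 kb beyond the end of Cpe, a peak held 41 reads with a fold enrichment of 5.65.

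Pam (ENSMUSG00000026335.9), the longest of the 6 genes at 301 kb, occupies chromosome 1 from 99691691 to 99992223 on the minus strand. All 5 of its summits were inside the gene, and 0 lay in the 50 kb on either side. The 200 genes nearest in length had a median of 3 summits within 50 kb, and 30.5% had at least 5. The peak at the start, from 99991194 to 99992953, with the summit at 99991852, held 109 reads (89.5 to 131) with a fold enrichment of 8.23. The summit was 0.371 kb after the annotated start of the gene, in intron 1 of Pam-001, and the 200 bp around it had 65.5% G and C. The other 4 peaks held fewer reads. The second lay in intron 1, 47.8 kb after the start, with 67 reads. The others inside Pam-001 lay in intron 3 (120 kb after the start, 59 reads) and intron 16 (245 kb, 48 reads). The last, with 40 reads, lay 280 kb after the start, past the end of Pam-001 and in intron 3 of the short transcript Pam-009. The summit in intron 3 lay 2.03 kb after the start of Pam-203, a coding transcript that begins inside the gene, and its closest X-box match covered it with 1 mismatch. Fold enrichments at Pam ranged from 3.98 to 9.88, and 0 of its peaks reached 10.

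**Figure D2:**
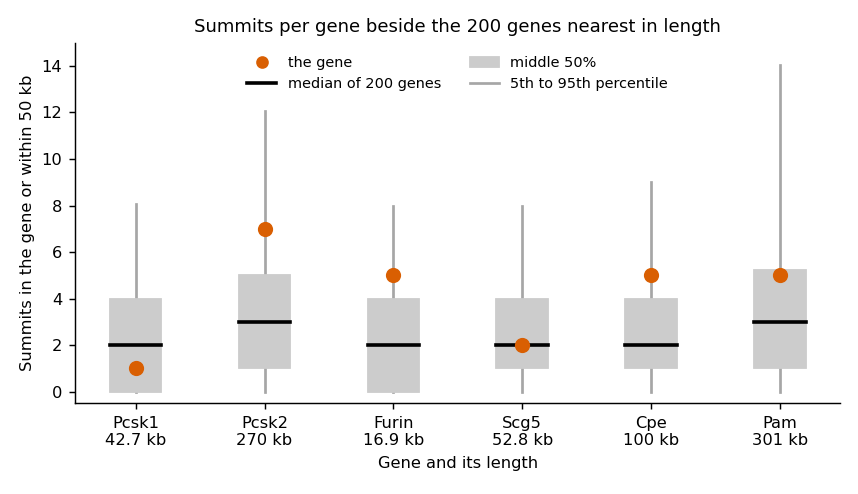
Number of summits in each gene or within 50 kb (orange points) beside the 200 protein-coding genes nearest in length, with their median (black line), middle 50% (grey box) and 5th to 95th percentile (grey line). Each of the 6 points lies below the 95th percentile of genes of its length, and Pcsk2, Furin and Cpe lie above the grey box.

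Ranked by the reads of the highest peak within 50 kb, the order was Furin (216 reads), Pcsk2 (163), Scg5 (141), Cpe (135), Pam (109) and Pcsk1 (83). Furin was above Pcsk2 by 53 reads, with a counting error of 19.5 (SE, the square root of the summed counts), or 2.72 SE. The other neighbours in this order differed by 6 to 26 reads, or 0.361 to 1.88 SE, so counting error alone did not separate them at 2 SE. This error covers counting only, since there was no replicate. Among genes of similar length, 15.5% had a highest peak with at least as many reads for Furin, 19% for Pcsk2, 29% for Scg5 and for Cpe, 51.5% for Pam and 55% for Pcsk1. For Furin and Scg5, the highest peak was one of those at the start of a neighbouring gene.

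By reads and fold enrichment, the 25 peaks had a median strength close to that of all peaks of the library. Their reads ranged from 39 to 216 with a median of 69, against a median of 73 for all peaks. The median fold enrichment was 8.23, against 8.54. The median score, which MACS takes from the p-value, was lower, at 120.9 against 148.9. At or above the medians of all peaks were 12 of the 25 by reads and 12 by fold enrichment. Only the peak at Unc45a was among the 10% of all peaks with the most reads, which begin at 182. Reads and fold enrichment ordered the peaks differently, since the peaks in intron 1 of Cpe and of Furin were rich in reads and low in fold enrichment.

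**Figure D3:**
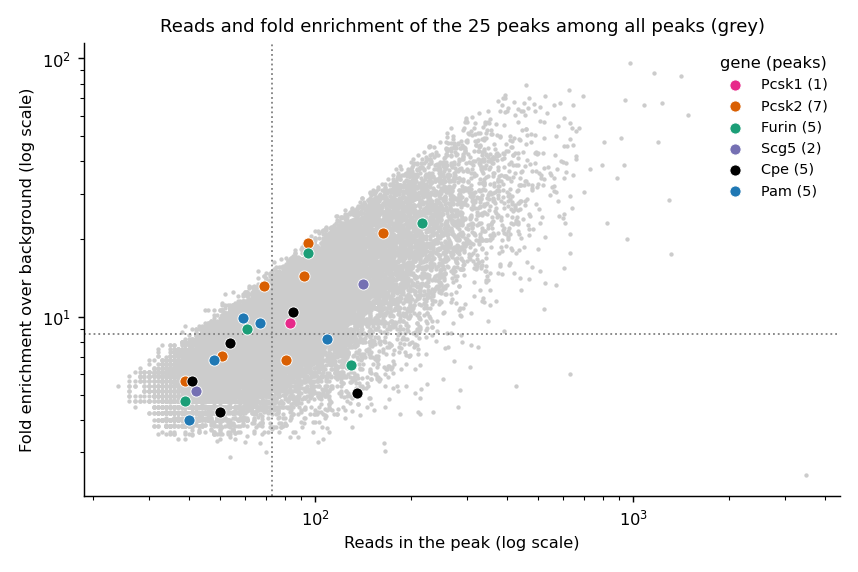
Fold enrichment (vertical axis, log scale) against reads (horizontal axis, log scale) of the 25 peaks, coloured by gene, among all 23308 peaks (grey), with dotted lines at the medians of all peaks. The wide peaks in intron 1 of Cpe (135 reads, fold enrichment 5.09) and of Furin (129 reads, 6.53) lie well below the peak of Scg5 with similar reads (141 reads, 13.42), and the peaks of Pam stay under a fold enrichment of 10.

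Peaks near these genes were not always nearest to them. For 14 of the 25 summits the nearest start of a coding transcript belonged to the gene of the set, and for 11 it belonged to another gene. Within 1 kb of such a start lay 7 of the 25 summits (28.0%, 95% Wilson interval 14.3 to 47.6%), against 21% of all peaks. Of these 7, 2 were at Cpe and Pam, and the other 5 were at Unc45a, Man2a2, Grem1, Arhgap11a and Sc4mol. Both convertase genes of the granule, Pcsk1 and Pcsk2, had no summit within 1 kb of their start. This was the more common state, since 20.1% of all protein-coding genes had one there.

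For the X-box, the shares among the 25 peaks were not distinguishable from those of all peaks at this number of peaks. A full match to the strict pattern was present at 3 of the 25 summits (12.0%, 95% Wilson interval 4.17 to 30.0%), against 6.42% of all peaks and 0.253% of windows of the same length 1 kb to the right of the summits. These were the peaks in intron 10 of Pcsk2, in Bfsp1 and at Sc4mol. At most 1 mismatch was found at 9 of the 25 (36.0%, 20.2 to 55.5%), against 29.8% of all peaks and 5.17% of the windows to the right. At most 2 mismatches were found at 24 of the 25, against 82.4% of all peaks and 43.9% of those windows, so matches this loose were common outside peaks. A relaxed pattern (a purine, 2 pyrimidines, any base and 2 pyrimidines, then 1 to 3 bases, then 2 purines, any base, a purine and AC) was present at 13 of the 25 (52%, 33.5 to 70.0%), against 45.9% of all peaks and 22.8% of the windows to the right. The Wilson interval included the share of all peaks in each case in which one is given. It treats the 25 peaks as independent, although several lie near the same gene and all come from 1 library. Such matches describe the sequence, and binding to them was not measured.

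**Figure D4:**
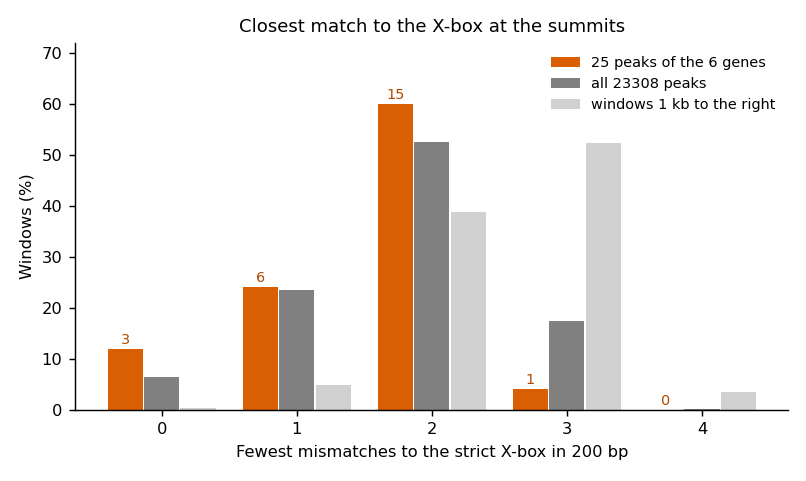
Share of windows (vertical axis, percent) by the fewest mismatches to the strict X-box in 200 bp (horizontal axis) for the 25 peaks (orange, with their number above), all 23308 peaks (dark grey) and windows 1 kb to the right of all summits (light grey). Of the 25 peaks, 3 have a full match, 6 have 1 mismatch, 15 have 2 and 1 has 3.

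Other short motifs were searched on both strands of the same 200 bp. The X-box arm GTTGCC was present at 5 of the 25 summits, against 26.8% of all peaks and 6.39% of the windows to the right. The E-box CAGATG, a form that NeuroD1 recognises, was present at 2, against 16.1% of all peaks and 15.6% of the windows to the right. The forkhead motif TGTTTAC was present at 0, which 25 windows would allow up to a share of 13.3% (Wilson interval). It was present at 2.45% of all peaks and 2.57% of the windows to the right. The AP-1 motif TGACTCA was present at 1, in the wide peak in intron 1 of Cpe. It was present at 4.12% of all peaks and 3.19% of the windows to the right.

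Further genes of the same kind of processing were counted in the same way, as a list of 18 genes. Of these, 15 had a summit within 50 kb, as did 67.8% of all protein-coding genes. A summit in the gene was present for 11 of the 18, against 31.3% of all protein-coding genes, and one within 1 kb of the start for 7, against 20.1%. The lengths of the 18 genes were not taken into account in these counts. Among the convertase genes of the list 6 of 6 had a summit within 50 kb, and among its carboxypeptidase genes 5 of 6, beside the same 67.8%. The genes with 0 were Cpn1, which encodes a carboxypeptidase of plasma, Tpst1, which encodes a tyrosine sulfotransferase, and Ctsl, which encodes cathepsin L. The number of summits was above the median of genes of similar length for 7 of the 18, equal to it for 3 and below it for 8.

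The highest peaks of the list belonged to Cpz, Tpst2 and Mbtps1. Cpz, which encodes a carboxypeptidase of the extracellular matrix, had 11 summits within 50 kb, and 1.5% of genes of similar length had at least as many. Its highest peak held 347 reads with a fold enrichment of 14.36 and lay 5.87 kb upstream of the start. Tpst2, the other tyrosine sulfotransferase, had 12 summits, 3 of them in the gene, and 1% of genes of its length had at least 12. Its highest peak, of 330 reads, was inside Crybb1, 20.7 kb upstream of its own start. Mbtps1, which encodes the site-1 protease, had 7 summits, and 10.5% of genes of its length had at least as many. Its highest peak held 238 reads at 2.56 kb beyond its end. The windows of Tpst2 and Mbtps1 held 6 and 5 other protein-coding genes, against medians of 2, and that of Cpz held 1, against 3. Their part in the counts was not tested. Each of the highest peaks of Cpz, Tpst2 and Mbtps1 held more reads than any of the 25 peaks of the 6 genes. By fold enrichment this held only for Mbtps1 (24.72), since Cpz (14.36) and Tpst2 (20.95) were below the highest of the 25 (23.07).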

How the data were processed

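Anti-HA ChIP-seq was measured in Min6b1 cells transfected with 3HA-Rfx6 and in control Min6b1 cells, with 1 library each and reads of 50 bases. The submitters' processing notes name CASAVA 1.8.2, Bowtie, MACS 1.4.2 and the mm9 build. The authors called peaks with MACS (p-value cutoff 1e-05, band width 300 bp, model folds of 10 to 30, local backgrounds over 1000 and 10000 bp, fragment size 234 bp). In the deposited list, reads are the count of 3HA-Rfx6 tags in a peak after duplicates were removed, the fold enrichment is the ratio to the background, the score is the negative log10 p-value multiplied by 10, and the FDR is in percent. The control kept fewer reads, and the effect of this on the deposited fold and FDR was not tested.

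Summits (start + summit offset - 1) were placed on NCBIM37 (mm9) and GENCODE M1. Exons were numbered in the transcript with the longest coding sequence. The 200 genes nearest in length had the smallest difference in log length, and no test over genes was run, since genes of 1 library are not replicates. Poisson and Wilson intervals are at 95%, and they and the SE of a difference between reads cover counting error only. The members, the 18 related genes and the patterns were chosen with earlier results of these data known. All 6 members and their peaks are named, and of the related genes the 3 with the highest peaks and those with no summit. The search and the counting were tested on simulated data, where 400 of 400 planted X-boxes were found. The X-boxes were planted from the same strict pattern, and the positions of the matches were not compared with the planted ones. Scripts ran under Python 3.11.15 (pysam 0.24.0, scipy 1.17.1, pandas 2.3.3, numpy 2.4.6, matplotlib 3.10.9).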

Additional observations from a re-analysis of the deposited data

How the results depend on the processing

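Each condition had a single library, so no replicate could be left out and nothing could be paired. With an FDR of at most 1%, 10 peaks of the list remained and 0 of the 6 genes had a summit within 50 kb, with 0 peaks in all, where 0.125% of all protein-coding genes had one. This limit does not select the strongest peaks, since among the 25 the lowest FDR, 1.76%, belonged to the peak with the lowest score, in Pam. Under the other 7 alternatives the count moved with the share of all protein-coding genes. It was 4 with the 50% of peaks with the highest scores (51.1% of all), with a fold enrichment of at least 10 (45.6%) and with 10 kb (47.1%), 5 with 20 kb (55.2%), and 6 with 100 kb (76.7%), from the start of the gene (62.4%) and with any overlap of the peak (68%). Pcsk1 and Cpe had none among the 50% of peaks with the highest scores, and Pcsk1 and Pam had none with a fold enrichment of at least 10.

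The number of peaks was 25. It fell to 10 with the 50% of peaks with the highest scores, to 8 with a fold enrichment of at least 10, to 16 with a distance of 10 kb, and to 12 when the 50 kb were taken from the start of the gene. Keeping only peaks whose nearest coding start was that of the gene, an alternative chosen after seeing the data, gave 14. The number of genes above the median of genes of similar length was 4. It was 3 with a fold enrichment of at least 10 and 2 with the 50% of peaks with the highest scores. By definition, up to 50% of the genes of similar length themselves lie above their median. The relaxed X-box count of 13 became 3 with the strict pattern and 24 with at most 2 mismatches. The changes in the counts of peaks and of X-box matches follow from fewer or more of them entering. Why the number of genes above the median changed was not tested. Among the 50% of peaks with the highest scores, Pcsk2 kept 5 of its 7 peaks, Furin 3 of 5, Pam 1 of 5 and Cpe 0 of 5. With a fold enrichment of at least 10, Pcsk2 kept 4, Furin 2, Cpe 1 and Pam 0.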

Other observations

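The closest X-box matches of several of the peaks shared the letters CCTAGCAAC, an arm of the X-box with the bases before it. This was noticed in the printed matches and searched for only afterwards, so the count has no test. The letters were present on either strand in the 200 bp around 5 of the 25 summits (20%). All peaks had them at 4.73%, and windows 1 kb to the right of the summits at 0.176%. Because the letters were chosen from these same peaks, the 20% is raised by that choice, and no interval is given. The 5 peaks belonged to Pcsk2 (introns 8 and 10), Cpe (intron 1 and downstream) and Pam (intron 3). They held 41 to 163 reads, and the letters were 2 to 28 bp from the summit. The sites are shown with 15 bases on each side, in mm9 coordinates, with the shared letters in capitals.
Pcsk2, intron 8, chr2:143612771-143612809, plus strand: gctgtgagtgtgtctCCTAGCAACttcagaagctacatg
Pcsk2, intron 10, chr2:143622509-143622547, minus strand: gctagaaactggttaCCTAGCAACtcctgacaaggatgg
Cpe, intron 1, chr8:67103825-67103863, plus strand: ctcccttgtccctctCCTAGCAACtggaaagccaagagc
Cpe, downstream, chr8:67029162-67029200, plus strand: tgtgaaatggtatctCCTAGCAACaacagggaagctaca
Pam, intron 3, chr1:99871767-99871805, plus strand: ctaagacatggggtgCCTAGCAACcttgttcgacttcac

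Of these 5 peaks only the one in intron 10 of Pcsk2 held a full match to the strict X-box.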
